A study of Mus musculus with 2 samples.

Results

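Footprints are short stretches inside open chromatin where DNase I cuts less often than in the bases around them. The subject here was the long ones, chosen by width and by recurrence: autosomal footprints at least 30 bp wide that shared at least 1 bp with a footprint of the other library. By this rule 6757 of the 156390 footprints of replicate 1 and 8994 of the 202779 of replicate 2 were long footprints, 15751 of 359169 in all. They were set against shared footprints of 7 to 12 bp, chosen by the same overlap, which numbered 42633 in replicate 1 and 36156 in replicate 2.

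The data came from DNase-seq of the frontal cortex of male B6CASTF1/J mice aged 14 days. B6CASTF1/J is the F1 hybrid of the laboratory strain C57BL/6J and the wild-derived strain CAST/EiJ, and the labels list no treatment and no engineered allele. The single group held 2 libraries, each labelled as tissue of 3 males together, with separate tissue samples but 1 shared donor number, so part of their spread may be technical. Conditions could not be compared within a single group, and the comparisons are between classes of footprints within each library, described without p-values because footprints of 1 library are not replicates.

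DNase I releases ends where DNA is not wrapped in nucleosomes, and a protein sitting on open DNA shields the bases beneath it. A single transcription factor usually covers a short site, whereas neighbouring factors, or large proteins such as CTCF with its row of zinc fingers, can shield longer stretches. Promoters of widely expressed genes often carry GC boxes (bound by Sp and Klf factors), CCAAT boxes (bound by NF-Y) and sites of NRF1 and CREB. At tRNA genes, RNA polymerase III depends on TFIIIC, which binds elements inside the gene such as the B box, and on TFIIIB, which TFIIIC places just upstream of the start.

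The sequences printed here show the kinds of DNA that the results turn on, each taken over the joined interval of both libraries from the mm10 reference. Positions are 1-based in mm10, every sequence runs 5′ to 3′, and none of them touches an annotated untranslated region. In the first set, at promoters and upstream of the start site, the strand is that of the gene. Capitals mark matches to the CCAAT box (CCAAT), to the GC box (GGGCGG) and to the E-box spelled CACGTG, in either direction.
Pan2, chr10:128303257-128303331, plus strand: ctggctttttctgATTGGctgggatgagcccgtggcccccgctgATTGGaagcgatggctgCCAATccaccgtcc
Bbx, chr16:50432415-50432487, minus strand: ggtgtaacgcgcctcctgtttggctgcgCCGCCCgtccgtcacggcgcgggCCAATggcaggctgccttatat
Ccdc66, chr14:27508491-27508556, minus strand: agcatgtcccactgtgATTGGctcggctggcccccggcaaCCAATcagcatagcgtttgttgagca
Tle4, chr19:14598357-14598410, minus strand: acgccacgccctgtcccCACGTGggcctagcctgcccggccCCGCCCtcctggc

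The second set held the widest long footprints with a match to the CTCF core, named by the nearest protein-coding gene and written on the strand of the core, whose 12 bases are in capitals. More bases lay before the core than after it in each of the 3.
Eif3f, chr7:108934140-108934193, minus strand: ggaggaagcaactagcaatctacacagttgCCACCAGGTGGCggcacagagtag
Ell2, chr13:75798023-75798075, minus strand: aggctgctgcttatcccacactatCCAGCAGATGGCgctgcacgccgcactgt
Csmd3, chr15:48792893-48792944, minus strand: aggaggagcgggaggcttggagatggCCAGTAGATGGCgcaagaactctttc

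The third set held wide footprints over the 5′ end of tRNA genes, written on the strand of the tRNA gene with its bases in capitals, so that the lower-case letters are upstream DNA.
tRNA-Arg near Polg, chr7:79466370-79466433, plus strand: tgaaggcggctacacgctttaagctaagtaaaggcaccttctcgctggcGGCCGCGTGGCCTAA
tRNA-Thr nearest to Mrtfb, chr16:13437274-13437337, plus strand: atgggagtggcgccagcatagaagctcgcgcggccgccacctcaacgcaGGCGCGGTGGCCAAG
tRNA-Leu nearest to Stx11, chr10:12922647-12922708, minus strand: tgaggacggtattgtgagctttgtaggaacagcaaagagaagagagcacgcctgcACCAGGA
tRNA-Thr nearest to Lrp3, chr7:35234831-35234892, minus strand: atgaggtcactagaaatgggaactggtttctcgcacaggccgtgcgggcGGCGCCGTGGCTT

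The sources used here give no read depth, and peak heights are the authors' values on a scale set per library. Of the markers of cortical cells, 6 of 7 excitatory neuron genes, 3 of 6 interneuron genes, 3 of 5 astrocyte genes, 2 of 4 oligodendrocyte genes and 2 of 5 microglia genes had a promoter peak in each library. None of the 6 markers of hindbrain and other organs had one, but 4 of the 14 liver and muscle genes of a longer list did (Des, Ckm, Apob and Pygm). Of the cortical markers, Slc17a7, Lhx6, Dlx1, Sst, Slc1a3, Aqp4, Mbp, Sox10, Csf1r, P2ry12 and Tmem119 lacked a promoter peak in at least 1 library.

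Wide footprints were found again in the other library more often than narrow ones. Of autosomal footprints at least 30 bp wide, 62 of 6819 in replicate 1 and 360 of 9354 in replicate 2 had no partner and were left out, whereas of those of 7 to 12 bp 40.8% in replicate 1 and 26.6% in replicate 2 had a partner. Wider intervals have more bases in which to overlap, and recurrence was part of the rule, so this is a description. The median width of the long footprints was 35 bp in replicate 1 and 36 bp in replicate 2, with the widest at 75 bp and 92 bp. Just inside the limit, at 30 bp, 760 of 773 footprints in replicate 1 and 977 of 1051 in replicate 2 had a partner, and just outside it, at 29 bp, 945 of 965 and 1149 of 1242. Their promoter shares were 58.2% and 59.7% at 30 bp, against 59.2% and 56.9% at 29 bp.

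**Figure D1:**
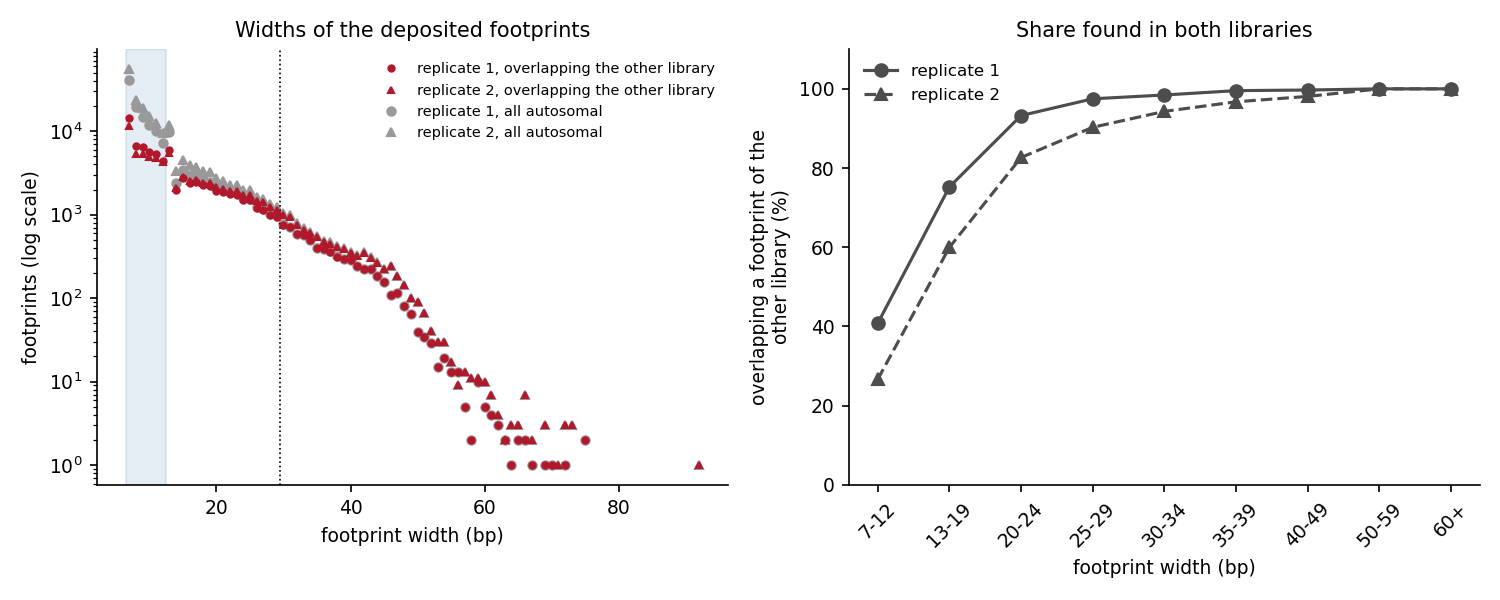
Left, number of autosomal footprints (log scale) by width in bp, with those overlapping the other library in red and all of them in grey; circles are replicate 1, triangles replicate 2, the dotted line is the 30 bp limit and the blue band marks 7 to 12 bp. Right, share of footprints overlapping one of the other library by width, which was 40.8% and 26.6% at 7 to 12 bp and 100% in each library from 50 bp on.

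A long footprint in one library was often a shorter one in the other. The partner was itself at least 30 bp wide for 65.5% of the long footprints of replicate 1 and 49.2% of those of replicate 2. The 4423 pairs that were long in both libraries had edges close together: both edges lay within 3 bp of each other in 54.8% of pairs and within 10 bp in 90.4%. Across these pairs the widths had a Pearson r of 0.587, a description over pairs and not over independent samples. Joining overlapping members gave 4426 loci with a long footprint of both libraries, of which 2763 lay at promoters.

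Long footprints lay at promoters more often than short ones, and closer to the start site. Taking protein-coding start sites of GENCODE M21, those within 1000 bp of one were 60.5% of long footprints in replicate 1 and 57.9% in replicate 2, against 52.3% and 50.7% of short footprints. The difference of 7.70 ± 0.707 percentage points (SD, n = 2) was larger than the gap between the libraries. It turned round in the tallest 20% of peaks, which held most long footprints, as given with the peak heights. The median distance to a start site was 195 bp in replicate 1 and 260 bp in replicate 2 for long footprints, and 697 bp and 889 bp for short ones. Introns held 14.7% of long footprints in replicate 1 and 15.3% in replicate 2, against 19.1% and 20.4% of short ones, and intergenic DNA held 23.6 ± 0.982% of long and 26.4 ± 0.359% of short footprints (SD, n = 2).

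Long footprints at promoters sat mostly on the upstream side of the start. Of those within 1000 bp, 80.3% in replicate 1 and 78.1% in replicate 2 had their middle upstream, against 63.3% and 64.1% of short promoter footprints. The last 100 bp before a start held 28.3 ± 2.36% of all long footprints and 17.9 ± 0.0281% of all short ones (SD, n = 2). The first 100 bp after a start went the other way, with 8.61 ± 0.398% of long and 11.9 ± 0.566% of short footprints. Long promoter footprints also fell less often in coding exons, 2.47 ± 0.340% against 5.87 ± 0.316% of short ones. Starts of genes on both strands lay within 1000 bp for 15.6% and 14.4% of the long promoter footprints, against 11.9% and 12.1% of the short ones.

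**Figure D2:**
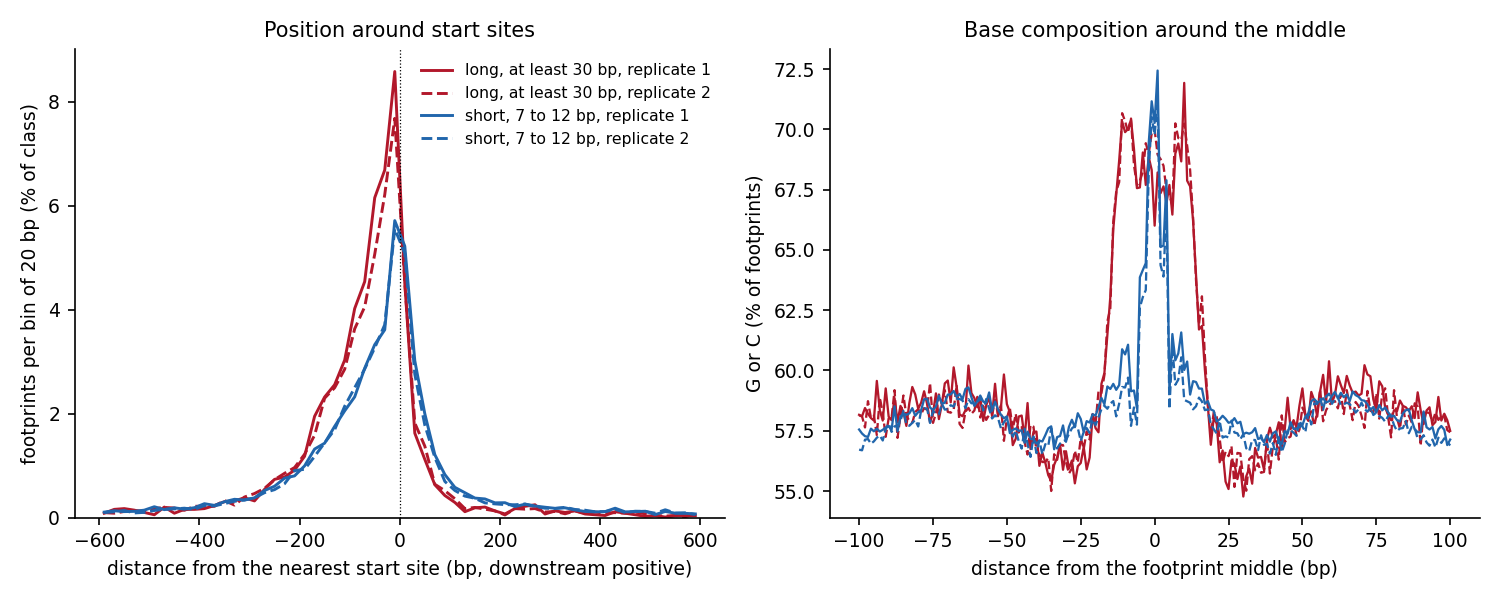
Left, share of all footprints of a class in bins of 20 bp by signed distance of their middle from the nearest start site, long in red and short in blue, replicate 1 solid and replicate 2 dashed; the tallest long bin, the last 20 bp before the start, held 8.13 ± 0.637% of long footprints and 5.64 ± 0.111% of short ones. Right, share of footprints with G or C at each distance from the footprint middle, where the central 11 positions averaged 68.2 ± 0.641% for long and 66.1 ± 0.700% for short footprints.

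Peaks that held long footprints were taller. The median height of the peak around a footprint was 4.01 in replicate 1 and 3.38 in replicate 2 for long footprints, and 1.74 and 1.63 for short ones, a ratio of 2.18 ± 0.166 (SD, n = 2). Footprints and heights come from the same cuts, so the 2 measures are not independent. The ratio was 2.06 ± 0.113 among promoter footprints and 1.57 ± 0.0162 among distal ones, those farther than 1000 bp from every start. Long footprints fell outside called peaks less often, in 5.64 ± 0.942% of cases against 12.4 ± 0.658% for short ones.

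Height was tied to the location as well, and at like heights the order of promoters and distal sites turned round. Of the tallest 10% of peaks 45.3 ± 4.07% held a long footprint, and of the lowest 10%, 0.00667 ± 0.00943% (SD, n = 2). Between 80 and 90% of the height ranking, 29.1 ± 5.75% of distal peaks and 14.3 ± 3.73% of promoter peaks held one, and between 70 and 80%, 15.2 ± 4.13% and 5.05 ± 1.72%. The tallest 20% of peaks held 5344 of the 6757 long footprints in replicate 1 and 6654 of the 8994 in replicate 2. Of short footprints they held 18839 of 42633 and 15970 of 36156. Within these peaks, 69.1% of long footprints in replicate 1 and 67.7% in replicate 2 lay at promoters, against 71.7% and 72.4% of short ones. This comparison, chosen after seeing the data, gave a difference of -3.60 percentage points, -2.54 in replicate 1 and -4.67 in replicate 2. The median distance there was 134 ± 8.49 bp for long and 119 ± 2.83 bp for short footprints.

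**Figure D3:**
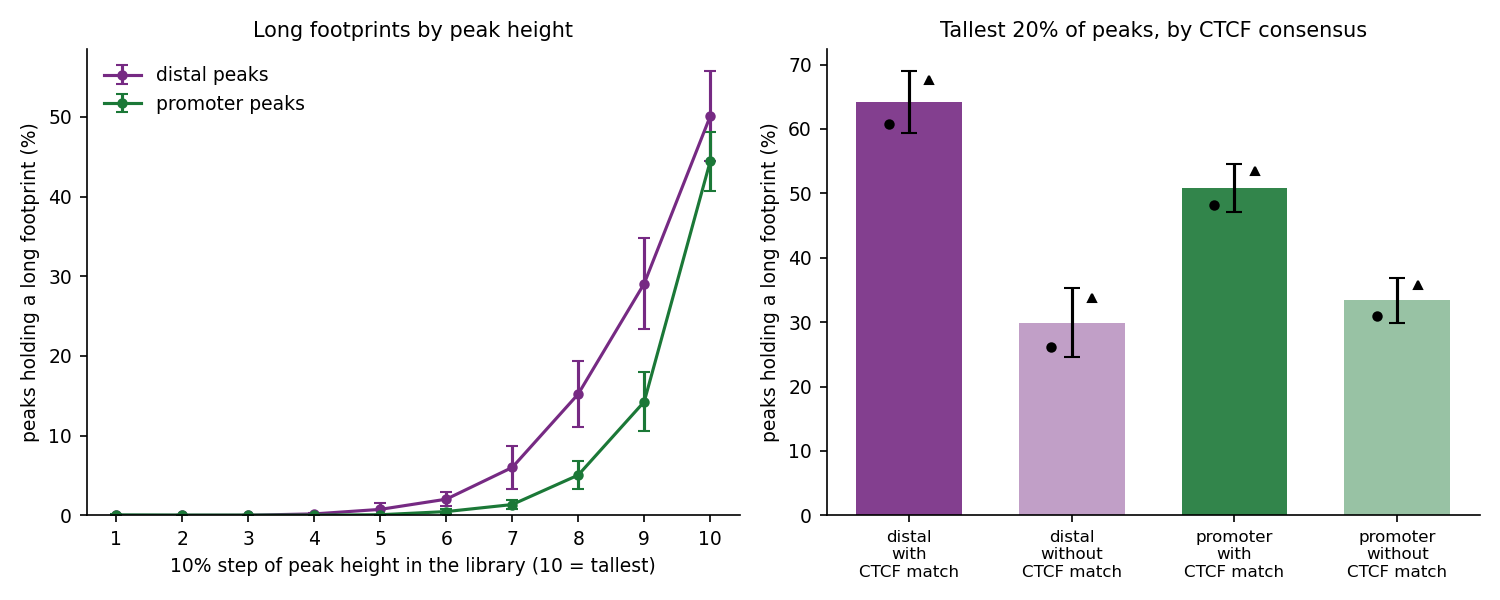
Left, share of peaks holding at least 1 long footprint in steps of 10% of the peak height ranking of each library, distal peaks in purple and promoter peaks in green, mean and SD of 2 libraries; the distal share was above the promoter share in each step from the fourth on. Right, the same share in the tallest 20% of peaks, with and without a CTCF consensus match in the peak, as mean and SD with replicate 1 as circles and replicate 2 as triangles; distal peaks with a match reached 64.2 ± 4.76%.

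Within their peaks, long footprints lay near the middle. The median distance from the peak middle was 21.5 bp in replicate 1 and 22.5 bp in replicate 2 for long footprints, and 45.5 bp and 48.5 bp for short ones. Peaks around long footprints were slightly narrower by their mean, with a ratio of mean widths of 0.931 ± 0.0198 (SD, n = 2), long over short. The median peak widths were 240 bp in each library around long footprints, and 240 bp and 260 bp around short ones. The median number of footprints in such a peak was 4 for both classes in each library. Most peaks with a long footprint held 1, and 728 of 5585 in replicate 1 and 1007 of 7278 in replicate 2 held 2 or more, up to 5.

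The mean GC content over the footprint bases did not set the classes apart. It was 67.0% in replicate 1 and 67.3% in replicate 2 for long footprints, and 67.0% and 66.0% for short ones, a difference of 0.650 ± 0.961 percentage points (SD, n = 2) that is smaller than its spread. Over footprints the SD of GC content was 11.2 percentage points for long and 17.1 for short footprints in replicate 1, and 11.2 against 17.0 in replicate 2. Percentages over few bases are coarse, and the part of width in this was not tested. Below 40% GC lay 0.505 ± 0.0870% of long and 5.62 ± 0.359% of short footprints. Windows of 50 bp around the middle hold more footprint bases for long than for short footprints. In them GC content was 64.2 ± 0.321% for long and 60.4 ± 0.553% for short footprints, and the ratio of observed to expected CpG was 0.749 ± 0.0113 against 0.646 ± 0.0101. At 20 to 30 bp from the middle, just beyond most edges, GC content was 56.5 ± 0.310% around long and 57.7 ± 0.277% around short footprints, and at 80 to 100 bp it was 58.2 ± 0.186% and 57.6 ± 0.259%.

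Matches to 24 consensus sequences were counted in windows of 50 bp around the footprint middles, on either strand. In each library 12 of the 24 were found around long footprints more often than around short ones. Those with the largest gaps were promoter elements and CTCF. The GC box GGGCGG was present in 24.9 ± 1.05% of long and 13.4 ± 0.406% of short windows (SD, n = 2), beside 7.94 ± 0.0153% of all 50 bp windows in peaks. The NRF1 site GCGCNTGCG had 6.73 ± 1.03% against 1.84 ± 0.0859%. For the CREB site TGACGTCA the shares were 2.00 ± 0.437% and 0.463 ± 0.111%. The CCAAT box reached 10.5 ± 0.477% against 7.81 ± 0.127%, but in distal footprints taken alone the difference was -0.432 percentage points.

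CTCF was the consensus that separated long from short footprints most widely outside promoters. Its core was present in 10.1% of windows around long footprints, against 1.80 ± 0.485% around short ones and 0.950% of all windows in peaks. Among distal footprints alone, 21.7% of long and 3.37 ± 0.934% of short windows had it, and among promoter footprints 2.13% and 0.331 ± 0.129%. The share rose with the width of distal footprints to 26.7 ± 3.06% at 40 to 44 bp and was 11.5 ± 7.27% at 50 to 59 bp. None of the 8 distal footprints of at least 60 bp in replicate 1 and none of the 13 in replicate 2 had it. Long footprints with the core inside them numbered 659 in replicate 1 and 923 in replicate 2, of which 87.7% and 87.5% were distal. They were placed unevenly on the core, with a median of 17 and 16 bases before it and 10 and 11 bases after it.

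Height and CTCF were then read together. In the tallest 20% of peaks, 60.8% of distal peaks with the CTCF core in replicate 1 and 67.5% in replicate 2 held a long footprint, against 26.1% and 33.7% of distal peaks without it. In the next 20%, the shares were 21.2% and 29.8% with the core, and 6.49% and 10.7% without it. At promoters of the tallest 20% they were 48.2% and 53.5% with the core, in 141 and 159 peaks, and 30.9% and 35.8% without it.

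**Figure D4:**
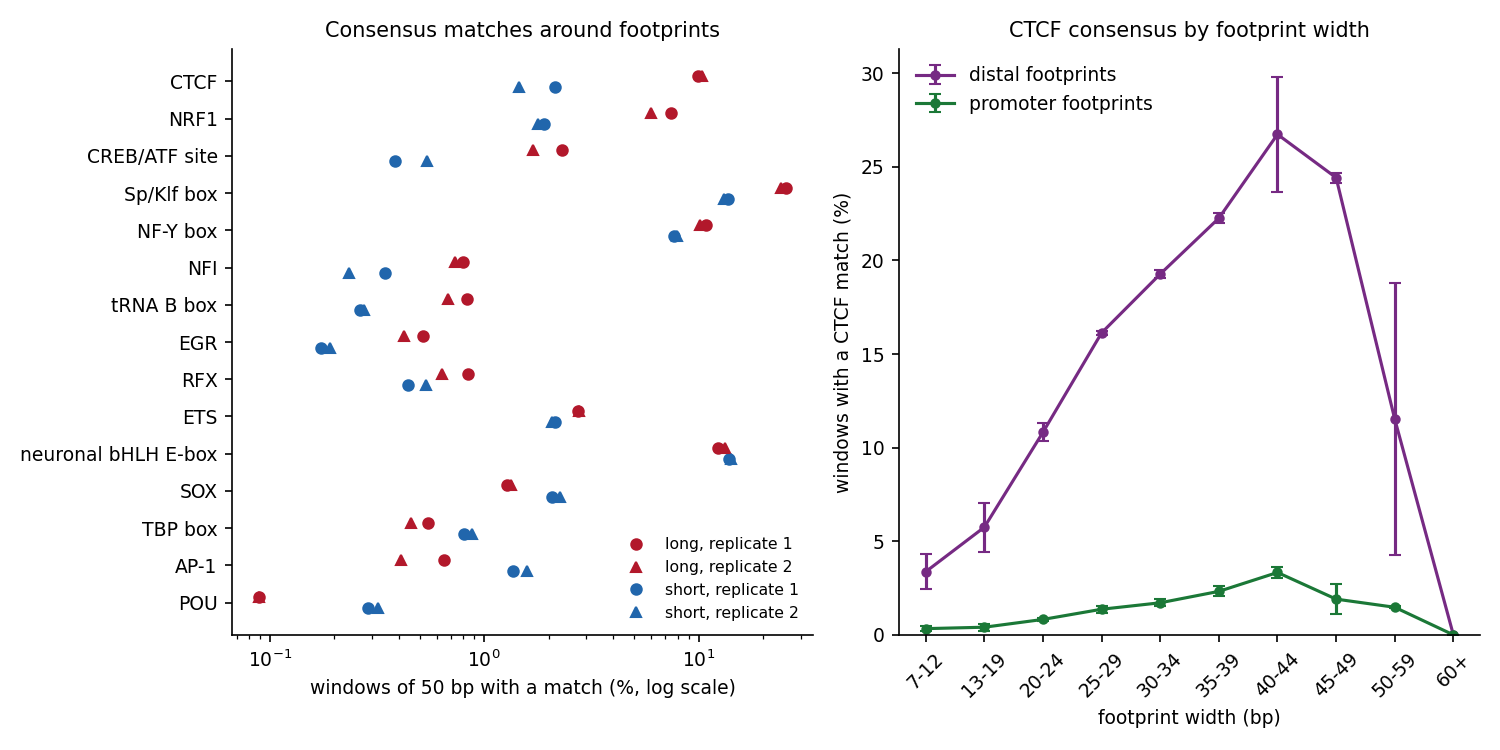
Left, share of 50 bp windows with a consensus match (log scale) around long footprints in red and short ones in blue, circles for replicate 1 and triangles for replicate 2; CTCF, NRF1 and the CREB/ATF site stand farthest to the right of their short values. Right, share of windows with the CTCF core by footprint width, mean and SD of 2 libraries, for distal footprints in purple and promoter footprints in green; the distal share peaked at 26.7 ± 3.06% between 40 and 44 bp.

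Several smaller classes of sites went the same way. The sequence TCTCGCGAG, found at promoters, was in 0.394 ± 0.133% of long and 0.147 ± 0.0261% of short windows. The nuclear factor I palindrome had 0.766 ± 0.0462% against 0.290 ± 0.0776%. EGR sites, spelled GCGTGGGCG and bound by the activity-induced Egr factors, had 0.470 ± 0.0675% against 0.182 ± 0.0122%. At least 2 different consensus sequences were present in 17.1 ± 0.998% of long and 7.97 ± 0.0801% of short windows.

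Other consensus sequences were rarer around long footprints. AP-1, spelled TGANTCA and bound by Fos and Jun dimers, was in 0.531 ± 0.170% of long and 1.48 ± 0.163% of short windows, beside 1.92% of all windows in peaks. SOX sites, spelled ACAAAG, had 1.303% against 2.16%, and the POU octamer ATGCAAAT had 0.0889% against 0.303%. E-boxes of the form CAGNTG, bound by neuronal bHLH factors, had 12.8 ± 0.696% against 14.0 ± 0.197%, an order that turned round among distal footprints, where the difference was 1.84 percentage points, and in windows of 30 bp, where it was 0.339.

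Seen from the sites, the share of consensus matches in peaks that lay in long footprints ranged widely. Long footprints covered 1.61% of all peak bases in replicate 1 and 1.95% in replicate 2, but held 18.3% and 25.6% of the CTCF matches. For NRF1 the shares were 17.7% and 18.1%, and for the CREB site 17.1% and 17.2%. For AP-1 they were 0.385% and 0.355%, and for the POU octamer 0.290% and 0.216%.

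Long footprints were also found at tRNA genes. In replicate 1, 77 of them overlapped 66 of the 386 autosomal tRNA genes annotated by RefSeq, and in replicate 2, 74 overlapped 66 genes, with 44 genes shared. This was 1.14% and 0.823% of long footprints, against 0.202% and 0.254% of short ones. The 924 snRNA genes were overlapped by 4 and 8 long footprints. These were 0.0592% and 0.0889% of long footprints, against 0.0539% and 0.0443% of short ones. No long footprint overlapped the 1276 snoRNA genes, and only 2 and 1 short ones did, too few to set the classes apart.

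The long footprints that shared at least 1 base with a tRNA gene fell into 2 placements with no overlap between them. Those ending just short of a gene, such as the locus nearest to Hfe2 described below, were left out by this rule. The counts over the 5′ end depend on it. Those starting inside the gene numbered 54 in replicate 1 and 58 in replicate 2. They began a median of 40.5 and 39 bases after the first base of the gene and ended near its 3′ end, some of them beyond it. This stretch includes the B box, and the spelling GTTCGANNC was found in 46 of the 77 and 50 of the 74 long footprints at tRNA genes. Over the 5′ end lay 23 and 16, from a median of 44 and 49 bases upstream to 8 and 11 bases into the gene. These were wider, with medians of 49 and 53 bp against 35 and 35.5 bp for those starting inside the gene. Each of the 21 long footprints of at least 50 bp at tRNA genes lay over the 5′ end, as in the printed sequences of tRNA-Arg, tRNA-Leu and tRNA-Thr. Many tRNA genes exist in near-identical copies, and 18 of the 77 and 21 of the 74 held a doubly non-unique base, one where the 36-letter words read from it in both directions occur again in the genome.

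**Figure D5:**
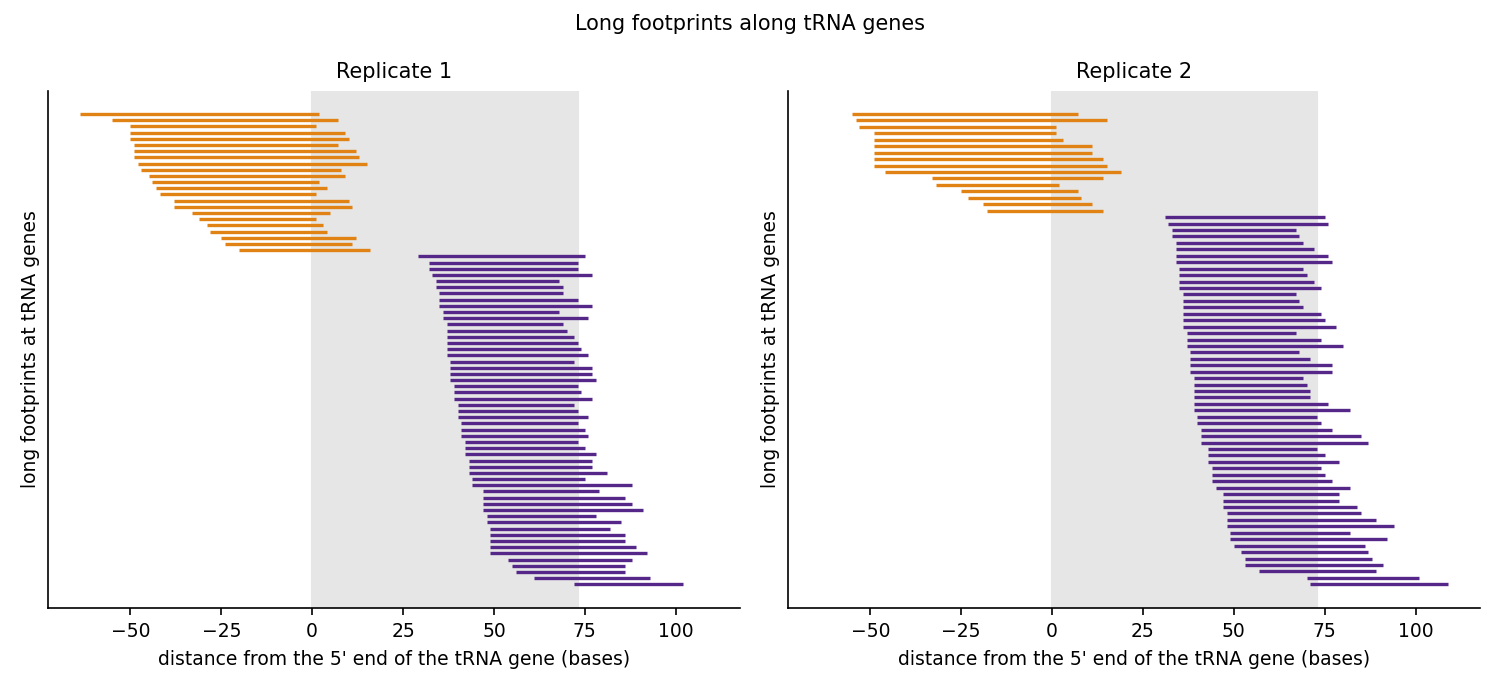
Each line is 1 long footprint at a tRNA gene, drawn by its distance in bases from the 5′ end of the gene in the direction of transcription, replicate 1 left and replicate 2 right; the grey band marks the first 73 bases. Orange lines, 23 and 16 in number, run over the 5′ end and purple ones, 54 and 58, start inside the gene, some of them ending beyond it.

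Among single loci, the widest held CCAAT boxes in several cases. That box was present in 13.7 ± 0.487% of 50 bp windows around long promoter footprints (SD, n = 2). Wider loci have more bases in which to match, and the part of width was not tested. At Pan2, a subunit of a deadenylase that shortens poly(A) tails, the footprint measured 75 bp in replicate 1 and 66 bp in replicate 2, 41 bp upstream of the start, in peaks of height 17.2 and 17.8. It held 3 CCAAT boxes, as printed above. At Ccdc66, a centrosomal protein gene, the widths were 62 and 66 bp with 2 CCAAT boxes, and at Bbx, an HMG-box factor gene, 59 and 73 bp with a CCAAT box and a GC box. Zmynd8, which encodes a chromatin reader, had 70 and 73 bp with its middle 4 bp upstream of the start and a CCAAT box. Gucd1 had 69 bp in each library, and Cdk2ap2 had 66 and 65 bp, 90 bp downstream of a start.

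The other widest loci differed in kind. At Leprot the footprint was 67 bp wide in each library, at a signed distance of -479 bp from the start (upstream), with no peak of replicate 1 over its middle and a peak of height 17.5 in replicate 2. The Polg locus, 63 bp in each library, lay over the 5′ end of a tRNA-Arg gene. The middle of the locus was 39 bp upstream of the start of Polg, the gene of the mitochondrial DNA polymerase. Erlin2 had 53 and 73 bp, and Rbm27 had 65 and 62 bp.

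Some wide loci lay in repeated DNA, where reads cannot be placed with certainty. The widest footprint of all, 92 bp in replicate 2 and 47 bp in replicate 1 at chr6:47757987-47758078, was doubly non-unique in all of its 92 bases. At the start of chromosome 9, 13 loci lay between positions 3000571 and 3024614, of which 12 held such non-unique bases. Over all members, 1.23% in replicate 1 and 1.25% in replicate 2 held one, against 0.633% and 0.631% of short footprints, a count that wider intervals raise. With at least 50% of the bases non-unique, the shares were 0.488% and 0.445% of long against 0.539% and 0.506% of short footprints, and with all bases 0.281% and 0.311% against 0.474% and 0.451%. Without members holding such a base the promoter difference was 8.04 percentage points.

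Of the 6 widest distal loci, 3 overlapped tRNA genes, but among all distal long footprints of at least 50 bp only 8 of 55 in replicate 1 and 6 of 121 in replicate 2 did. The footprint nearest to Mrtfb measured 61 and 64 bp, that nearest to Stx11 62 bp in each library, and that nearest to Lrp3 62 and 60 bp, all over tRNA genes. One nearest to Hfe2, at a signed distance of -24701 bp, measured 61 and 60 bp and matched none of the consensus sequences. It ran from position 96500441 to 96500502 of chromosome 3, just upstream of a tRNA-His gene on the minus strand with its 5′ end at 96500437. Sharing no base with that gene, it was not counted at tRNA genes. The widest loci with a CTCF core were those of Eif3f, a translation initiation factor subunit, with 54 and 51 bp, of Ell2 with 53 and 50 bp, and of Csmd3 with 52 and 49 bp.

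The tallest peaks with long footprints included those at 3 other genes. At Dynlt1b, a dynein light chain gene, 2 long footprints shared a peak of height 34.6 in replicate 1 and 26.8 in replicate 2, one of 42 bp in each library before the start and one of 52 and 51 bp after it. The one of 42 bp held 4 doubly non-unique bases. Tle4, a corepressor gene of deep-layer cortical neurons, had 3 in a row, the widest with 54 and 53 bp, in a peak of height 25.03 and 22.2. Dnpep, an aspartyl aminopeptidase gene, had 2, of 46 and 42 bp and of 40 and 44 bp. GC boxes were present at each of these loci.

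Of 20807 autosomal protein-coding genes, 2846 had a long footprint within 1000 bp of a start in both libraries, which is 13.7% (17.4% in replicate 1 and 21.1% in replicate 2). Among the 12657 genes whose promoter held a peak of each library the share was 22.5%. The counts of 17 gene lists are read against these shares, without a test, and say nothing particular to a list. Peak heights were not matched between lists, and their part in these counts was not tested.

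Every gene counted in the next 6 lists had a promoter peak in each library, so that 22.5% is the share beside which their counts stand. In housekeeping genes 7 of 12 (58.3%) had a long footprint in both libraries, led by Ppia, the cyclophilin A gene, with 51 bp in replicate 1 and 66 bp in replicate 2, and Hsp90ab1, a chaperone gene, with 45 and 55 bp. Of chromatin architecture genes it was 6 of 11 (54.55%), with Stag1, a cohesin subunit, at 50 and 51 bp and Hdac1, a histone deacetylase, at 47 and 43 bp, and with Ctcf itself at 34 and 37 bp. Of clock genes it was 7 of 15 (46.7%), with the repressor Cry1 at 46 and 47 bp and Tef, a PAR bZIP factor, at 46 and 33 bp. Cytosolic ribosomal protein genes had 6 of 18 (33.3%), led by Rpl5 at 47 and 48 bp and Rpl27 at 46 and 42 bp. Oxidative phosphorylation genes had 4 of 14 (28.6%), led by the ATP synthase gene Atp5b at 59 and 58 bp and by Cox6c at 42 and 34 bp. Ubiquitin and proteasome genes had 2 of 13 (15.4%), with Ube2d3 at 38 and 45 bp and Psmd4 at 30 and 31 bp.

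Among genes of cortical neurons and their activity, immediate early genes had 4 of 15 (26.7%), all with a promoter peak in each library, among them Jun at 46 and 52 bp and Arc, the activity-regulated synaptic gene, at 39 bp in each library, while Fos, Npas4 and Nr4a1 had none in either library. Synapse genes had 2 of 12 (16.7%), all with such a peak, among them the vesicle protein gene Vamp2 at 41 and 39 bp. Cortical layer genes had 2 of 12, or 2 of the 11 with a peak, Tle4 at 54 and 53 bp and Pou3f3 at 39 and 37 bp. Excitatory neuron genes had 1 of 12, or 1 of the 10 with a peak.

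Of genes of other cell types, astrocyte genes had 2 of 12, or 2 of the 8 with a promoter peak in each library, the glutamine synthetase gene Glul at 41 and 39 bp and Sox9 at 35 and 31 bp. For interneuron (13 genes), oligodendrocyte (14), microglia (12), vascular (11), Hox (13) and liver and muscle genes (14) the count was 0. Promoter peaks in each library were present at 9 of these interneuron genes, 5 oligodendrocyte, 5 microglia, 6 vascular, 0 Hox and 4 liver and muscle genes. In bulk tissue, a site bound in few cells and a site bound weakly in many cannot be told apart.

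Long footprints were not gathered in few genes. The span of 1610 genes held at least 1 locus, and that of 6 genes at least 5. The highest counts were 23 loci in Gm20388, whose annotated span of 4435 kb runs over many other genes, and 11 in the 2961 kb annotated for Fgfr2. That span also runs over other genes, and none of the 11 loci had Fgfr2 as its nearest protein-coding gene. Ate1, Lhpp and Plekha1 were among those nearest. Camta1, a calcium-responsive factor gene, held 6 in its span, some of them nearest to Uts2 or Vamp3. The neighbours Mboat7 and Tsen34 shared the same 5 at their starts. Gm10718 held 6 in 1.67 kb of the repeated start of chromosome 9, and Gucd1 and Jarid2, a Polycomb partner gene, held 4 each. Loci in the span of Gucd1 included some nearest to Upb1, and those in Jarid2 some nearest to Dtnbp1. Per megabase, chromosome 11 had most, 4.67 in replicate 1 and 6.50 in replicate 2, and chromosome 14 fewest, 1.83 and 2.50.

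The deposited cut rate track, which comes from the same cuts as the footprints, ranked the classes alike from either library. The best value over a footprint had a median −log10 false discovery rate of 22.2 in replicate 1 and 19.9 in replicate 2 for long footprints, and 7.69 and 7.35 for short ones. Read from the track of the other library, the medians were 23.5 and 17.9 for long, and 8.06 and 7.58 for short footprints. A best value over more bases is lower in false discovery rate by width alone, so no independent difference is read from these.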

How the data were processed

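Peaks, footprints and cut rate tracks were deposited separately for 2 DNase-seq libraries, in mm10 coordinates according to the deposited files. The aligner, the callers and their versions are not given in the sources used here. Peak heights are the authors' deposited signal values, scaled within each library. The deposited cut rate track lists bases whose false discovery rate (a q-value) is below 0.05. In the deposited footprints the p-value column holds 0.01 throughout, read as the calling threshold, so footprints cannot be ranked by it. Each library had a longer peak list, used here (75753 and 77035 peaks), and a shorter one, used as an alternative. Reads of an F1 hybrid may map less well at variants of the strain that is not the reference, and its part in the values was not tested. Depth was not given, so that no counting interval could be set.

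A footprint was placed by its middle base. Start sites (90310 of 20807 autosomal protein-coding genes) came from GENCODE M21, sequence and tRNA genes from RefSeq GRCm38.p6, the same build. A peak belonged to a footprint when it held the middle base. Uniqueness was read from exact 36-letter words of the reference, which may differ from the reads used. Intervals were handled with Python 3.11.15, pandas 2.3.3, numpy 2.4.6, numba 0.67.0 and pysam 0.24.0, and checked against brute force on simulated intervals. Chromosomes X and Y were left out by the rule.

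The members, gene lists and consensus sequences were chosen with earlier results of these data known. Values are per library or mean ± SD over 2 libraries, and SDs measure the spread between these libraries alone, which may be technical. Named loci were the 12 widest joined loci by mean width, the 6 widest distal ones, the 8 with the tallest peaks, the 3 widest with a CTCF match, the 8 genes with most loci in their span and up to 2 genes per list with the widest promoter footprint. Ctcf, Fos, Npas4 and Nr4a1 were named after their values were seen, as were the 2 placements at tRNA genes. Some loci, genes and sequences that these rules select are not reported here. The closing section gives the alternatives.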

Additional observations from a re-analysis of the deposited data

Results flagged for a closer look

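The X chromosome lies outside the autosomal rule and was used in no comparison, but it held footprints of the same kind. Of footprints at least 30 bp wide on it, 105 of 106 in replicate 1 and 174 of 182 in replicate 2 shared at least 1 bp with one of the other library. They were singled out as a signal in data that the comparisons did not use, there being no control sample to set them against, and nothing further was tested on them.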

How the results depend on the processing

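The share of long minus short footprints at promoters (7.70 percentage points) was 7.20 to 8.20 when 1 library was left out. It was 4.76 with a width minimum of 40 bp, 9.01 with an overlap of 50% of the longer footprint, 16.1 against all footprints of 7 to 12 bp, 10.7 with 1 footprint per peak, 4.12 in the shorter peak list and 8.83 with a promoter window of 500 bp. It reversed to -3.60 in the tallest 20% of peaks. The ratio of median distances (0.286, and 0.280 to 0.293 without 1 library) was 0.298 at 25 bp, 0.443 at 40 bp, 0.267 with the overlap of 50%, 0.0827 against all short footprints, 0.157 with 1 footprint per peak, 0.509 in the shorter list and 0.383 with start sites of all genes. It reversed to 1.13 in the tallest 20%. The GC difference (0.650 percentage points, and -0.0300 to 1.33 without 1 library) was 4.50 against all short footprints and 3.83 in windows of 50 bp. It reversed to -1.36 at 40 bp, -0.0802 in the shorter list, -1.42 in the tallest 20% and -0.862 at promoters. The height ratio (2.18, and 2.07 to 2.30 without 1 library) was 2.39 at 40 bp, 2.38 with the overlap of 50%, 3.08 against all short footprints, 1.86 in the shorter list and 1.57 for distal footprints.

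The ratio of footprints per peak (0.935 of means, 0.904 to 0.966 without 1 library) was 0.872 in the shorter list. Members averaged 4424 per library where both had to be at least 30 bp wide, against 7876, and were 6757 and 8994 in 1 library each. Genes with a long promoter footprint were 2846 in both libraries together, and 3614 to 4392 with 1 library. Of single consensus sequences, the long minus short difference reversed in distal footprints for CCAAT (-0.432 percentage points), TCTCGCGAG (-0.0130) and CAGNTG (1.84), the last also in windows of 30 bp (0.339). The alternatives by height, uniqueness and tRNA genes were chosen after seeing the data. The cause of these changes was not tested. Peak width, the number of consensus sequences with a larger share around long footprints (12 to 14 of 24) and the gene count with windows of 500 and 2000 bp stayed within the limits set. Long and short classes were set against each other within each library. No paired analysis was possible because there was 1 group of samples and no second group to pair it with.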
